A study of Mus musculus with 2 samples.

Results

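The annexin genes encode calcium-dependent proteins that bind acidic phospholipids in membranes. The 9 members were chosen by name (Anxa1, Anxa2, Anxa3, Anxa4, Anxa5, Anxa7, Anxa10, Anxa11 and Anxa13), and 8 of them had a row among the 31053 genes of the matrix; Anxa13 was not analysed here. The study grew organoids of the mouse small intestine, hollow epithelial cultures that contain crypt and differentiated cells, without or with melatonin. Its title asks about epithelial regeneration that depends on the transcriptional regulator YAP. The labels give 1 control and 1 melatonin-treated library, each from cells of 3 organoid lines pooled on culture day 3, and name no strain, genotype or melatonin dose. The matrix, barcode and gene files of both libraries were identical, 3 of 3, so the data are 1 matrix. Its barcodes end in the suffix 1 (set 1 here) or 2 (set 2 here), and no label ties a suffix to a treatment. No comparison of control with melatonin was therefore made, ratios are set 2 over set 1 with an arbitrary direction, and no test was possible with 1 pool of cells a set.

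Barcodes with at least 500 genes, at least 1000 unique molecular identifiers (UMIs, counts of captured RNA molecules) and no more than 20% mitochondrial UMIs entered as cells. These kept cells were 2300 of 12364 barcodes in set 1 and 1766 of 9442 in set 2, with 61628537 and 51111519 UMIs and medians of 29872 and 28759 per cell. Of the barcode sequences, 29 occurred in both sets, and 0 of these were among the kept cells. Levels are UMIs of a gene per 1000000 UMIs of the cells named (CPM), with exact Poisson intervals at the 95% level that cover counting error only. A lower summed level can mean fewer cells with a transcript or less of it per cell, and the concentration of each annexin over cells is given for that reason.

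Each annexin has a conserved core of repeats that binds calcium and membrane, and an N-terminal part that differs between members and binds partners such as S100 proteins. Annexins take part in membrane repair, in the joining of membranes with the cytoskeleton and in vesicle traffic. Anxa1 is also known as an anti-inflammatory protein that acts through formyl peptide receptors and promotes closure of mucosal wounds. In the intestine, Anxa1 has been used to mark injury-associated, fetal-like epithelium, and Anxa10 is best known from gastric epithelium.

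The promoters of 7 members were in a RefSeq table (build GRCm38.p6); Anxa3 was not among them. The 250 bases before the annotated start are shown for Anxa1 and Anxa10, which had the most cell-restricted levels together with Anxa3, for Anxa2, and for Anxa4 as the most abundant and most evenly spread member. The build used for the counts is not given in the sources used here, and the coordinates are those of the RefSeq table. Sequences run 5′ to 3′ on the gene's strand, and capitals mark matches to TATAAA (the TATA box), TGANTCA (the AP-1 core) and CATTCC (the core bound by TEAD factors, partners of YAP), each searched on both strands.
Anxa1 (chr19:20390672-20390921, minus strand): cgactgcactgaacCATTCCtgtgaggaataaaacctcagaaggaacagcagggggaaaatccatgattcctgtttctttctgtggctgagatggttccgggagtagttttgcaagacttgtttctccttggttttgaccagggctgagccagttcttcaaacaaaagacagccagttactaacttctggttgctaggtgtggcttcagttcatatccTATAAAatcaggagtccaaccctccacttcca
Anxa10 (chr8:62123194-62123443, minus strand): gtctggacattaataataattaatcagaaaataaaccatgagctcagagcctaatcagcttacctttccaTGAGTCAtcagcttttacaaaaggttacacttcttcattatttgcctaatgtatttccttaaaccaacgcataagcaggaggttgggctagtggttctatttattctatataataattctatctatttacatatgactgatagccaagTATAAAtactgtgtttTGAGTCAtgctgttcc
Anxa2 (chr9:69453433-69453682, plus strand): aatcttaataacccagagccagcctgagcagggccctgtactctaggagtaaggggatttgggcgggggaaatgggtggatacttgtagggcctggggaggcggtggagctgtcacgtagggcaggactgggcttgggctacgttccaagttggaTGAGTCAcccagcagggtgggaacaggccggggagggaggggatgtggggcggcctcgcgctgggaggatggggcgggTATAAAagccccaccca
Anxa4 (chr6:86793585-86793834, minus strand): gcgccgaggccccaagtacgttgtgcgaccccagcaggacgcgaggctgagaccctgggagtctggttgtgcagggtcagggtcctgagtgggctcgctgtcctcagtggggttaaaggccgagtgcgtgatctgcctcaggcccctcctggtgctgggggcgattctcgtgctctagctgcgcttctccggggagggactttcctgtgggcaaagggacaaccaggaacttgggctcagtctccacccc

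TATAAA was found in the windows of Anxa1, Anxa10 and Anxa2, its first base 32, 32 and 17 bases before the start. It was absent from the windows of Anxa4, Anxa5, Anxa7 and Anxa11. TGANTCA occurred in the windows of Anxa10, at 180 and 16 bases, and Anxa2, at 95 bases before the start. CATTCC occurred in that of Anxa1, at 236 bases. Among all 32851 promoter windows of the same length, 12.4% held TATAAA, 6.75% TGANTCA and 12.6% CATTCC. A match is a description of the sequence and not a measured binding site.

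Over all kept cells the annexins spanned a wide range of levels, led by Anxa4, and every member was higher in set 2. Anxa4, an annexin of secretory and absorptive epithelia, measured 346 CPM in set 1 (interval 341 to 350, 21309 UMIs). In set 2 it measured 453 CPM (448 to 459, 23179 UMIs). Anxa2, which forms a complex with S100a10 at the plasma membrane, stood at 99.9 CPM (97.4 to 102) and 155 CPM (152 to 159). Anxa4 alone gave 59.4% of the UMIs of the 8 members in set 1 and 56.8% in set 2, and Anxa2 gave 17.2% and 19.4%.

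Anxa11, a member with a long N-terminal part that links RNA granules with lysosomes, had 56.3 CPM (54.5 to 58.2) and 64.9 CPM (62.7 to 67.1). Anxa7, known from membrane fusion in secretion, stood at 47.8 CPM (46.1 to 49.6) and 53.6 CPM (51.6 to 55.6). Both were close between the sets in size, although their intervals did not overlap. Anxa5, the phosphatidylserine-binding annexin used to detect dying cells, stood at 14.8 CPM (13.8 to 15.8) and 22.4 CPM (21.1 to 23.7).

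The least abundant members had the largest ratios. Set 1 held 471 UMIs of Anxa10, 7.64 CPM (6.97 to 8.36), and set 2 held 921, 18.0 CPM (16.9 to 19.2). Anxa3 stood at 6.34 CPM (5.73 to 7.01, 391 UMIs) and 16.7 CPM (15.6 to 17.9, 856 UMIs). Anxa1 stood at 3.29 CPM (2.86 to 3.78, 203 UMIs) and 14.0 CPM (13.0 to 15.1, 716 UMIs). For all 8 members the counting intervals of the sets did not overlap, down to a fold of 1.12 for Anxa7. These intervals leave out the spread between cells. The share of all genes that were higher in set 2, or whose intervals lay apart, was not computed. Neither count is therefore read as a trait of the annexins. Since this tag method reads transcripts near the 3′ end, these levels were compared between genes as molecules, without a division by length.

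**Figure D1:**
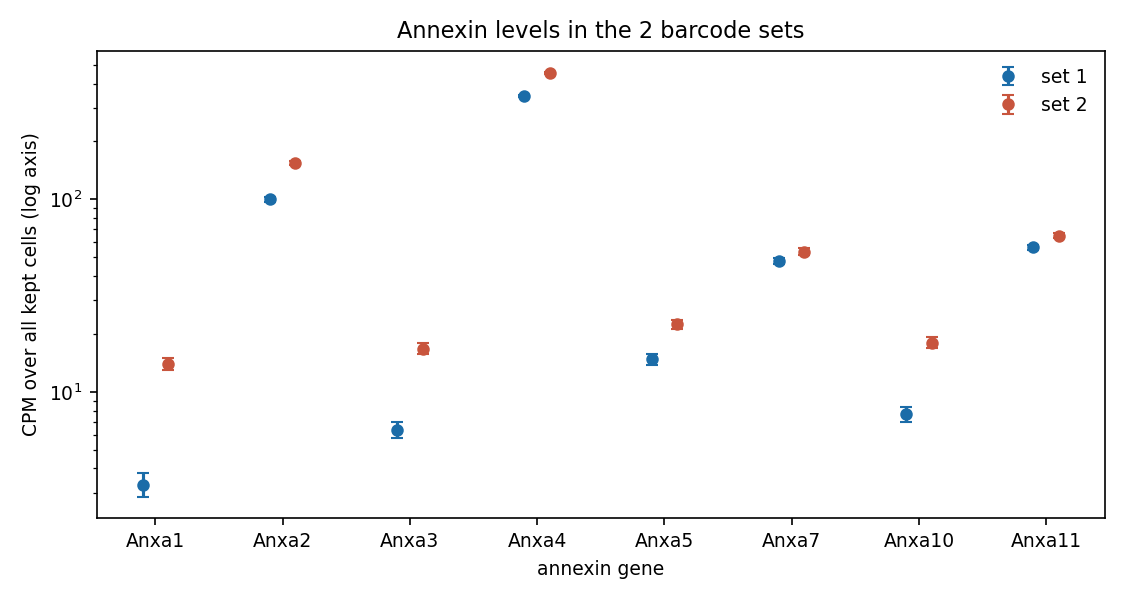
CPM of the 8 annexin genes over all kept cells of set 1 and set 2, on a log axis; points are summed levels and bars exact 95% Poisson intervals for counting error. Anxa4 leads in both sets (346 and 453 CPM), and the gap between the sets is widest for Anxa1, Anxa3 and Anxa10.

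On the scale of log2 of CPM plus 1, the ratios of set 2 over set 1 ran from 0.16 for Anxa7 to 1.81 for Anxa1, with a median of 0.60. The median over the 15474 genes with at least 10 UMIs was 0.03. Anxa1, Anxa2, Anxa3 and Anxa10 were past 1.5-fold higher in set 2, 4 of 8 members, against 2.46% of all genes. None of the 8 was past 1.5-fold lower, against 1.4% of all genes. Without the cells that passed the gate for revival-like cells, 2 members remained past 1.5-fold, Anxa1 and Anxa3. With each cell weighted equally, and also without the 5% of cells with most UMIs, 1 remained, Anxa1.

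The members differed in how their UMIs were spread over cells. In set 1, 50% of the Anxa1 UMIs lay in 2 cells, and in set 2 in 3 cells. For Anxa3 this took 4 and 5 cells, and for Anxa10 4 and 7 cells. The top 3 cells held 69.5% and 53.9% of the Anxa1 UMIs, 48.1% and 42.9% of those of Anxa3, and 45.9% and 27.9% of those of Anxa10. Anxa1, Anxa3 and Anxa10 were thus restricted to a small number of cells in both sets.

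The other members were spread widely. It took 511 cells in set 1 and 370 in set 2 to hold 50% of the Anxa4 UMIs, 386 and 315 for Anxa11, and 379 and 277 for Anxa7. Anxa2 lay between, with 294 cells in set 1 and 108 in set 2; its top 3 cells held 4.73% and 13.0% of its UMIs. Anxa5 needed 119 and 62 cells. Set 2, which had fewer cells in all, reached 50% in fewer cells for each of these 5 members.

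**Figure D2:**
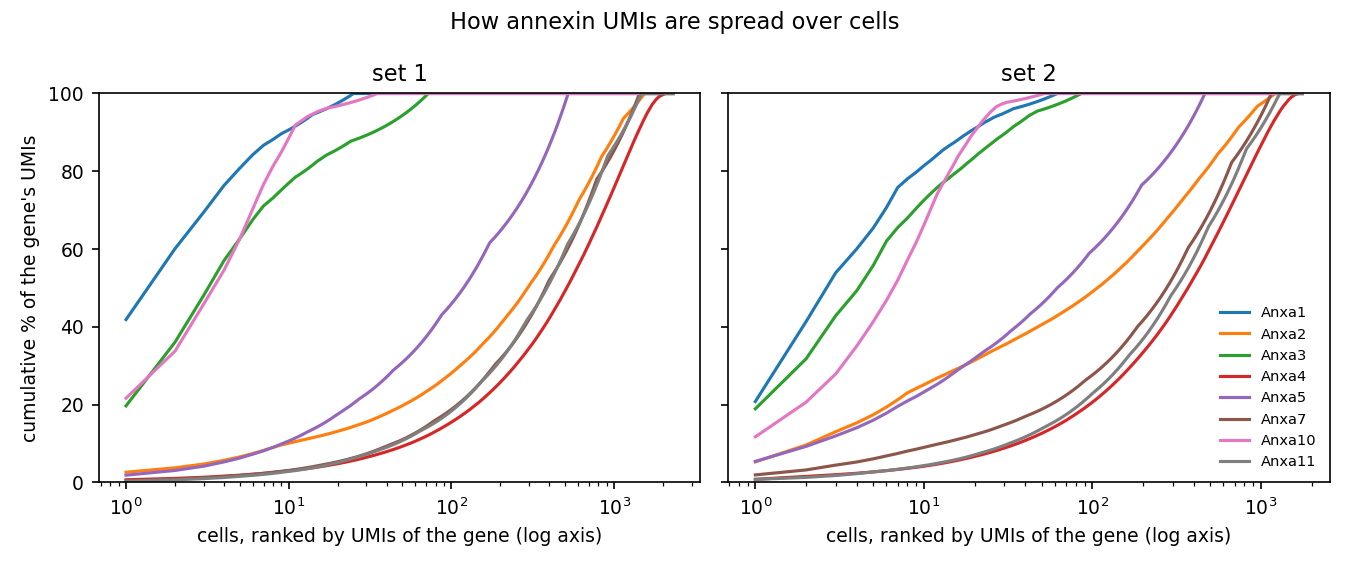
Cumulative percent of each gene's UMIs against kept cells ranked by their UMIs of that gene (log axis), 1 panel per set. The curves of Anxa1, Anxa3 and Anxa10 pass 50% within 2 to 7 cells, and those of Anxa4, Anxa7 and Anxa11 only after 277 to 511 cells.

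The share of cells with at least 1 UMI was put on a common depth, as the share expected when each cell is thinned to 2000 UMIs; 265 cells of set 1 and 77 of set 2 were shallower and were left out. Anxa4 was found in 48.2% of the cells of set 1 (Clopper-Pearson interval 46.1 to 50.5) and 54.5% of set 2 (52.1 to 56.9), and without thinning in 89.2% and 94.3%. Anxa2 was found in 16.1% and 17.4% (unthinned 66.7% and 68.7%). Without thinning, Anxa11 (63.9% and 73.3%) and Anxa7 (62.2% and 65.5%) also had a UMI in most cells.

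Anxa11 was found in 10.4% and 11.7% of thinned cells, Anxa7 in 9.12% and 9.15%, and Anxa5 in 3.97% and 4.53%. Anxa10 was found in 0.72% and 1.16%, Anxa3 in 0.96% and 1.11%, and Anxa1 in 0.34% and 0.79%. The thinned intervals of the sets overlapped for each of these 6 members. Without thinning, Anxa1 had a UMI in 25 of 2300 cells and in 62 of 1766.

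Cells were sorted by gates on marker genes, none of which is an annexin. A gate asked for a minimum share of UMIs from a marker list and a minimum number of its markers, and cells that passed several gates (47 in set 1 and 46 in set 2) were left out of the classes. The classes held 266 and 264 enteroendocrine-like, 123 and 181 enterocyte-like, 26 and 9 goblet- or Paneth-like, 879 and 665 crypt-like and 10 and 12 revival-like cells in sets 1 and 2. Only 2 and 1 cells were tuft-like, and their values are not compared. Revival-like cells carried at least 20 UMIs per 10000 from 16 genes of regenerating or fetal-like epithelium, among them Clu, Ly6a, Ly6d, Msln and S100a6, with at least 6 of the genes detected. The threshold was set after the marker sums had been seen, and 255 kept cells lay between it and 10 UMIs per 10000, 35 of them with at least 6 of the genes. The other 947 and 588 cells passed no gate.

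Most annexins were highest in the revival-like cells. Of 8 members, 6 (Anxa1, Anxa2, Anxa3, Anxa5, Anxa7 and Anxa10) were past 2-fold higher there than in all other kept cells in both sets, against 5.27% of all genes, and 0 were past 2-fold lower, against 8.61%. The median log2 ratio of the members was 3.26 in set 1 and 3.78 in set 2, beside -0.22 and -0.16 for all genes tested. The same 6 were past 2-fold in all 9 alternatives run, in which 6 to 8 members were past it, among them the one without each gene's 3 highest cells. The median depth of these cells was 17898 UMIs in set 1 and 54454 in set 2.

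Anxa3, a less studied annexin linked with cell migration, showed the highest ratios in this class. In the 10 revival-like cells of set 1, the UMIs per cell ran from 0 through a median of 6.5 to 77, and in the 12 of set 2 from 0 through 11.5 to 162. The summed levels were 711 CPM (614 to 819) and 757 CPM (693 to 825), against 3.23 and 6.78 CPM in all other cells. The log2 ratios were 7.40 and 6.61. The groups of cells overlapped at their low end, since 1 revival-like cell of each set had no Anxa3 UMI.

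Anxa10 ran from 0 through 5 to 57 UMIs per revival-like cell in set 1 and from 6 through 32 to 108 in set 2. Its summed levels were 578 CPM (491 to 676) and 732 CPM (669 to 799), against 5.12 and 8.41 CPM elsewhere, log2 ratios of 6.57 and 6.28. All 12 cells of set 2 and 8 of 10 of set 1 had a UMI. Because Anxa10 is a gastric gene, the 12 stomach and pyloric markers were read in the same cells. Their sum was 140 and 169 CPM in revival-like cells and between 0.16 and 35.5 CPM in enterocyte-, enteroendocrine-, goblet- or Paneth- and crypt-like cells. Tff1 led it with 34 and 95 UMIs in 3 and 4 cells, while Gkn2, Gkn3, Tff2, Muc5ac, Muc6, Sox2 and Pgc were at 0 in both sets. Their part in the Anxa10 level was not tested.

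Anxa1 ran from 0 through 4 to 19 UMIs per revival-like cell in set 1 and from 2 through 11 to 147 in set 2. The summed levels were 225 CPM (172 to 289) and 518 CPM (466 to 576), against 2.31 and 7.22 CPM in all other cells, log2 ratios of 6.09 and 5.98. All 12 cells of set 2 had at least 2 Anxa1 UMIs, and 2 of 10 of set 1 had none. Anxa1 is also a gene of stromal and immune cells. All 9 mesenchymal markers were at 0 in the revival-like cells of both sets, and 6 of 7 immune markers in set 1 and 7 of 7 in set 2. Of 4 endothelial markers, Pecam1 had 2 UMIs in set 2. Cells of several gates held 61.1% and 36.9% of the Anxa1 UMIs. They carried 452 and 376 mesenchymal UMIs, led by Vim as in enteroendocrine-like cells, and 8 and 15 immune UMIs. The part of stromal or immune cells in the Anxa1 level was not tested.

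Anxa2 ran from 0 through 22 to 162 UMIs per revival-like cell in set 1 and from 9 through 37.5 to 419 in set 2. It stood at 1396 CPM (1259 to 1544) and 2103 CPM (1996 to 2215), the highest level of any member in any of the classes. Anxa2 was present at 94.2 and 129 CPM in the other cells, so its log2 ratios of 3.88 and 4.02 were smaller than those of the 3 rare members. The top 3 revival-like cells held 72.6% and 66.0% of the Anxa2 UMIs of the class, and 82.9% and 71.4% of those of Anxa3.

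Anxa5 stood at 95.8 CPM (62.6 to 140) and 237 CPM (202 to 277) in revival-like cells, with log2 ratios of 2.65 and 3.54. In set 1 its interval overlapped that of the enteroendocrine-like cells. Anxa7 stood at 166 CPM (121 to 222) and 249 CPM (213 to 289), with ratios of 1.79 and 2.27. Anxa4 and Anxa11 were not past 2-fold in both sets. Anxa4 stood at 1186 CPM (1060 to 1323) and 854 CPM (786 to 927), log2 ratios of 1.79 and 0.93, and Anxa11 at 107 CPM (71.6 to 153) and 138 CPM (112 to 169), ratios of 0.92 and 1.10. The widely spread members were thus also higher in these cells, by less.

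**Figure D3:**
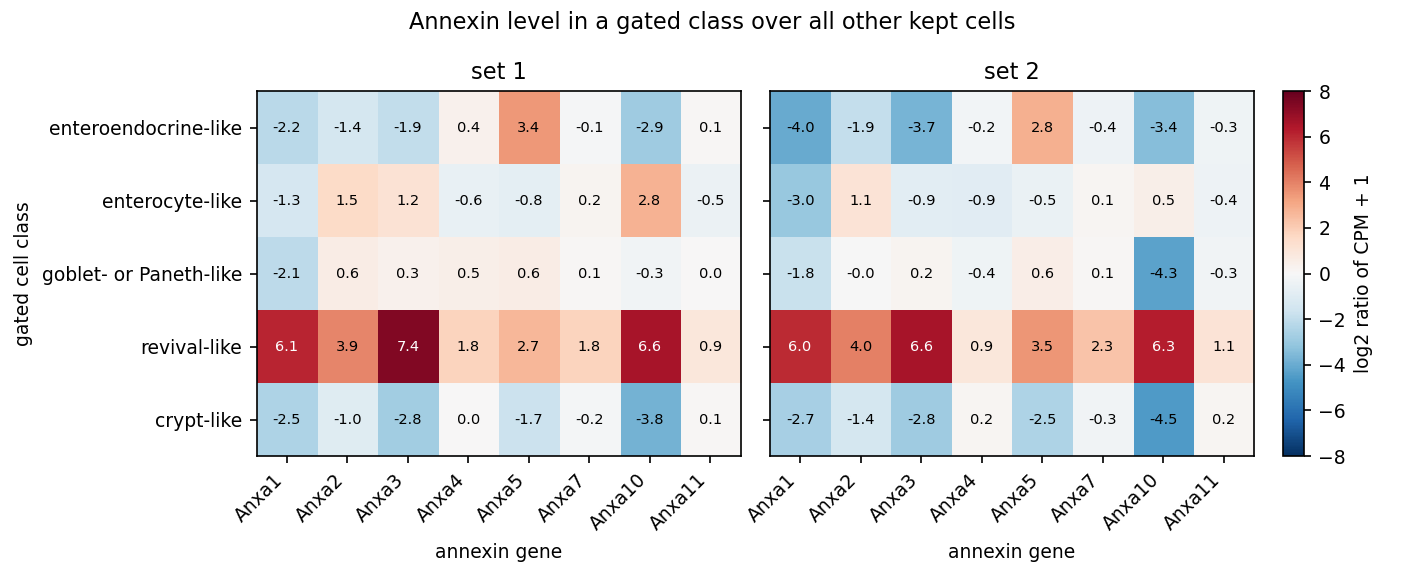
Log2 ratio of each annexin (CPM plus 1) in a gated class over all other kept cells, 1 panel per set; red is higher and blue lower than the rest. Revival-like cells are red for all 8 members in both sets, and Anxa5 is the one member past 2-fold higher in enteroendocrine-like cells.

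Counting every cell that passed the revival gate, also those of a second gate, gave 17 cells in set 1 and 20 in set 2. These 37 cells held 0.77% and 2.42% of all UMIs. They held 91.1% and 86.0% of the Anxa1 UMIs, 70.1% and 74.3% of those of Anxa3, and 57.5% and 76.8% of those of Anxa10. Of Anxa2 they held 8.98% and 25.1%, of Anxa5 8.46% and 22.5%, and of Anxa4 2.16% and 4.21%. Over these cells the order of the ratios differed from that in the class of revival-like cells, since Anxa1 came first, with log2 ratios of 8.23 and 7.38 over all other kept cells. Those of Anxa3 were 7.62 and 6.58 and those of Anxa10 7.06 and 6.76. Of the 37, 15 also passed another gate, 5 of them that for crypt, 4 enteroendocrine, 3 enterocyte and 3 goblet or Paneth; doublets among them were not tested for. The cells with most Anxa1 in each set, with 85 of 203 and 149 of 716 UMIs, were of this kind.

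Anxa1, Anxa3 and Anxa10 tended to lie in the same cells. All 3 were detected in 34 of 4066 kept cells, namely 18 of 22 revival-like cells, 10 of 93 cells of several gates, 3 of 304 enterocyte-like, 1 of 1544 crypt-like, 0 of 530 enteroendocrine-like and 2 of 1535 ungated cells. Across cells, log-scaled values of Anxa3 and Anxa10 correlated with r = 0.73 in 2300 cells of set 1 and 0.64 in 1766 of set 2. Anxa1 correlated with Anxa3 at 0.42 and 0.62, and with Anxa10 at 0.47 and 0.63. No pair of Anxa4, Anxa7 and Anxa11 exceeded 0.19. The cells of a set share a library and differ in depth, so these values are descriptions.

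Over all kept cells, the 3 rare members were highest where the summed revival markers were highest, but cells that pass the enteroendocrine gate did not follow this pattern. Below 2 marker UMIs per 10000, Anxa1 stood at 0.16 CPM in 1507 cells of set 1 and 0.54 in 796 of set 2. From 10 to 20 it stood at 3.25 (1.19 to 7.07, 130 cells) and 13.5 (9.13 to 19.3, 125 cells), and above 50 at 552 (470 to 644, 9 cells) and 702 (646 to 762, 11 cells). Most cells from 10 to 20 passed the enteroendocrine gate, 112 and 93 of them, and these held 0 Anxa1 UMIs. The remaining 18 and 32 cells of that range stood at 24.2 CPM (8.87 to 52.6) and 36.9 CPM (24.9 to 52.7). Enteroendocrine-like cells had median revival-marker sums of 9.04 and 7.85 per 10000. Anxa10 was less even along the score: from 5 to 10 it stood at 48.3 CPM in 196 cells of set 1 and 0.71 CPM in 241 cells of set 2, and without the cells passing the enteroendocrine gate at 98.1 CPM in 95 cells and 0.50 CPM in 137. In set 1 this bin held an enterocyte-like cell with 102 Anxa10 UMIs.

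**Figure D4:**
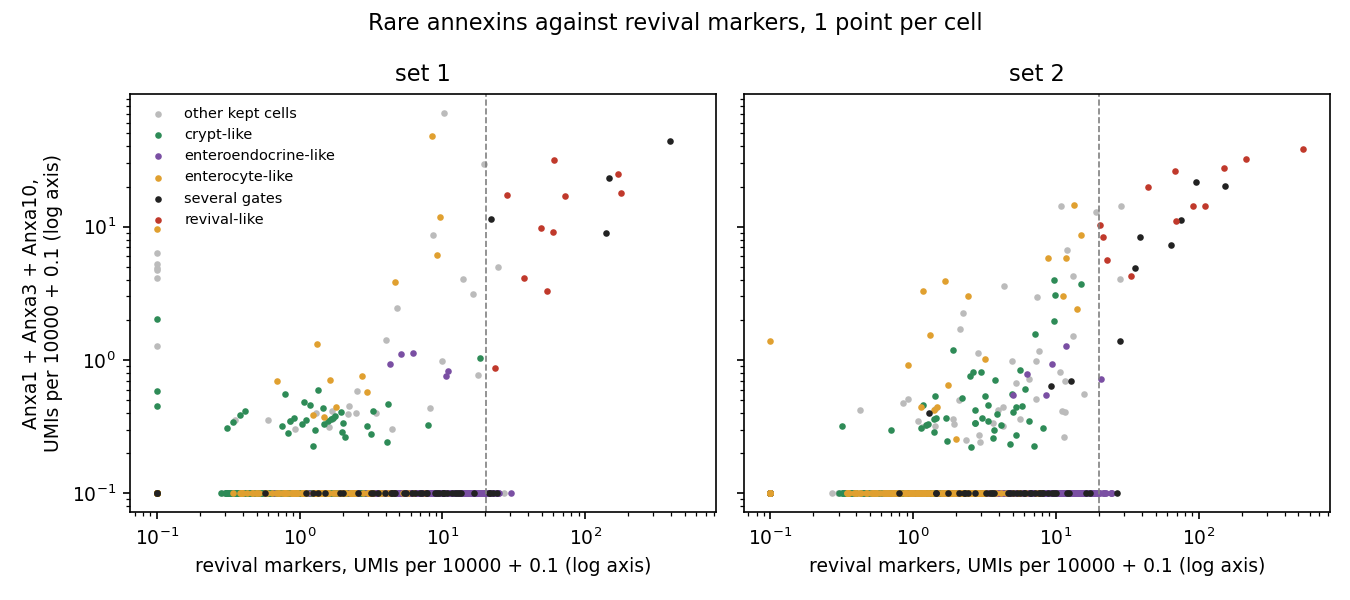
Summed Anxa1, Anxa3 and Anxa10 UMIs per 10000 against revival marker UMIs per 10000, both plus 0.1 on log axes, 1 point per kept cell, colored by class; the dashed line marks 20 marker UMIs per 10000. All revival-like cells lie above the floor, most crypt- and enteroendocrine-like cells on it, and a few enterocyte-like cells stand high to the left of the line.

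Enteroendocrine-like cells, the hormone-secreting cells of the epithelium, carried Anxa5, had no Anxa1 UMI and had few of Anxa3 (4 and 2 UMIs) and Anxa10 (1 and 4 UMIs). Anxa5 measured 104 CPM (94.0 to 114) and 110 CPM (100 to 121) in sets 1 and 2, against 8.59 and 14.7 CPM in all other cells, log2 ratios of 3.45 and 2.83. It was the 1 member of 8 past 2-fold higher, against 21.4% of all genes, a background that is itself high in this class. Anxa1, Anxa2, Anxa3 and Anxa10, 4 of 8, were past 2-fold lower, against 7.93%. For Anxa1, Anxa3 and Anxa10 the other cells include those of the revival gate, which hold most of their UMIs. Outside that gate Anxa1 stood at 0.29 and 2.0 CPM, Anxa3 at 1.91 and 4.41 CPM, and Anxa10 at 3.27 and 4.29 CPM. The 9 mesenchymal markers summed to 1058 and 714 CPM in these cells and to between 0.97 and 2.02 CPM in enterocyte- and crypt-like cells. Vim led that sum, and 7 of the 9 markers in set 1 and 6 in set 2 were at 0 in these cells. Over all kept cells outside the revival-like class, Vim had 4737 and 3350 UMIs. The next marker, Pdgfrb, had 12 and 18. Col3a1, Dcn and Lum were at 0 in all kept cells. The part of these genes in the Anxa5 level was not tested.

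The Anxa5 share of thinned cells was 17.9% (13.3 to 22.9) and 17.0% (12.5 to 22.0) in enteroendocrine-like cells and 1.43% and 1.07% in crypt-like cells. Median depths were 14312 and 14814 UMIs in the former and 36498 and 33211 in the latter. Chgb, a granule protein of enteroendocrine cells, was found at the same depth in 9.73% and 8.78% of crypt-like cells against 98.6% and 98.1% of enteroendocrine-like cells. The low Anxa5 share of crypt-like cells is not read as expression. Anxa1 had 0 UMIs in 266 and 264 enteroendocrine-like cells, which allows up to 0.75 and 0.73 CPM by 3 counts. In set 1 that limit is above the 0.29 CPM outside the revival gate, so a lower level than in those cells was not detectable at this depth. In set 2 the limit lies below the 2.0 CPM (1.63 to 2.44) outside that gate.

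Among enteroendocrine-like cells, Anxa5 went with the hormone genes. In cells with peptide hormone transcripts (38 and 92 cells) it stood at 155 CPM (128 to 187) and 160 CPM (141 to 180). In enterochromaffin cells, which make serotonin (116 and 103 cells), it stood at 91.9 CPM (78.3 to 107) and 87.3 CPM (73.2 to 103). In cells of the progenitor gene Neurog3 (21 and 12 cells) it stood at 60.0 CPM (32.8 to 101) and 21.4 CPM (4.42 to 62.6). In cells of more than 1 subset (73 and 54 cells) it stood at 104 CPM (86.0 to 126) and 62.4 CPM (45.7 to 83.2). The intervals of the peptide hormone cells did not overlap those of enterochromaffin, Neurog3 or mixed cells in either set.

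Anxa2 was also higher in peptide hormone than in enterochromaffin cells, with 73.5 CPM (54.9 to 96.3) and 81.8 CPM (68.6 to 96.8) in peptide hormone cells and 28.4 CPM (21.0 to 37.4) and 9.70 CPM (5.43 to 16.0) in enterochromaffin cells. In Neurog3 cells Anxa2 stood at 34.3 CPM (14.8 to 67.6) and 0 CPM (0 to 26.4). Anxa4 was lower in peptide hormone than in enterochromaffin cells, with 301 CPM (262 to 344) and 355 CPM (327 to 385) in peptide hormone cells and 488 CPM (456 to 521) and 446 CPM (413 to 481) in enterochromaffin cells. Anxa7 and Anxa11 had overlapping intervals in these subsets in both sets. Of the annexins outside the 9, Anxa6 stood at 109 and 99.4 CPM in enteroendocrine-like cells and 2.27 and 1.92 CPM elsewhere.

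**Figure D5:**
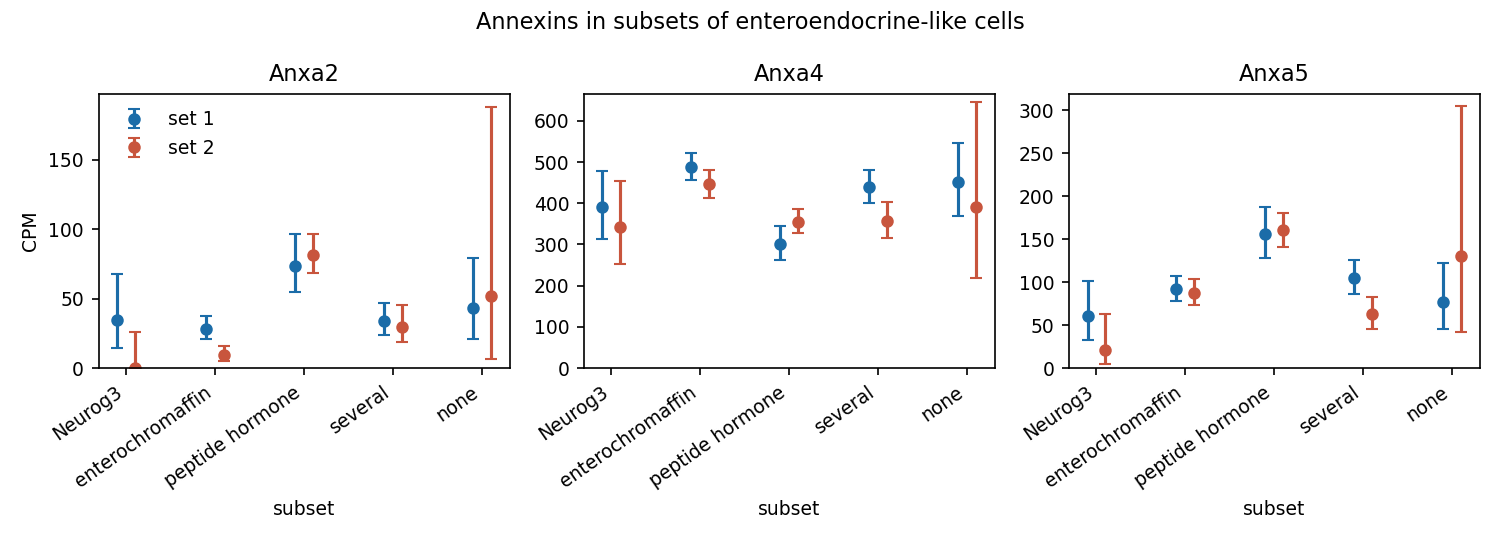
CPM of Anxa2, Anxa4 and Anxa5 in subsets of enteroendocrine-like cells, by set, with exact 95% Poisson intervals; several and none are cells of more than 1 subset or of no subset. Anxa5 and Anxa2 are higher in peptide hormone than in enterochromaffin cells in both sets, and Anxa4 is lower.

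In enterocyte-like cells, the absorptive cells, Anxa2 was the 1 member past 2-fold higher in both sets, against 5.04% of all genes, and Anxa1 the 1 past 2-fold lower, against 9.81%. The Anxa1 call was lost with a limit of 10% mitochondrial UMIs and without the 5 cells with most Anxa1 UMIs, where the log2 ratio of set 1 turned to 0.13. Anxa1 stood at 0.77 CPM (0.16 to 2.26) and 1.09 CPM (0.44 to 2.24) in enterocyte-like cells, on 3 and 7 UMIs, and at 0.29 and 2.0 CPM in all cells outside the revival gate. Anxa2 stood at 258 CPM (242 to 274) and 288 CPM (275 to 301), log2 ratios of 1.52 and 1.08. At a gate threshold 2 times lower the Anxa2 call was lost. Anxa4 was lower than elsewhere, at 232 CPM (217 to 247) and 259 CPM (247 to 272), log2 ratios of -0.61 and -0.89.

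Anxa10 and Anxa3 were present in a few enterocyte-like cells. Anxa10 had 164 UMIs in 6 of 123 cells of set 1 and 155 UMIs in 12 of 181 cells of set 2. In set 1, 102 of the 164 were in 1 cell, and without the 3 highest cells the log2 ratio turned from 2.78 to -0.84. That cell also held 35 Anxa3 UMIs, 0 Anxa1 UMIs and 1 S100a6 UMI. Anxa3 stood at 14.4 CPM (10.9 to 18.7) and 9.32 CPM (7.11 to 12.0).

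Crypt-like cells, which carry markers of intestinal stem cells, had less Anxa1, Anxa3, Anxa5 and Anxa10 than all other cells pooled. These 4 of 8 members were past 2-fold lower in both sets, against 5.62% of all genes, and 0 were higher, against 0.0452%. Anxa10 stood at 0.19 CPM (0.07 to 0.42) and 0.40 CPM (0.18 to 0.76), and Anxa5 at 6.38 CPM (5.52 to 7.34) and 5.50 CPM (4.57 to 6.56). For Anxa1, Anxa3 and Anxa10 the rest includes the revival-gate cells that hold most of their UMIs. Crypt-like levels of Anxa1, 0.32 and 2.73 CPM, were not below the 0.29 and 2.0 CPM of all cells outside the revival gate. Those of Anxa3, 0.87 and 2.95 CPM, were below the 1.91 and 4.41 CPM there, and those of Anxa10 below 3.27 and 4.29 CPM. Enterocyte-like cells held 56 and 60 of the 117 and 220 Anxa3 UMIs outside that gate. Of Anxa10 they held 164 and 155 of 200 and 214. For Anxa5 the rest includes enteroendocrine-like cells, which hold 45.6% and 39.7% of its UMIs. Ungated cells had 6.30 and 8.11 CPM of Anxa5, close to the crypt-like level in set 1.

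Crypt-like cells had 351 CPM (344 to 357) of Anxa4 in set 1, and those of set 2 had 483 CPM (474 to 492), a log2 ratio of 0.46 between the sets within the class. In ungated cells it was 322 CPM (314 to 329) and 483 CPM (472 to 494), a ratio of 0.58. In enteroendocrine-like cells the order was reversed, with 434 CPM (414 to 455) and 390 CPM (371 to 409), a ratio of -0.15. Revival-like cells had the same order, with 1186 CPM (1060 to 1323) and 854 CPM (786 to 927), a ratio of -0.47, and in goblet- or Paneth-like cells the intervals overlapped. In cells of several gates Anxa4 was again higher in set 2, with 456 CPM (417 to 497) and 554 CPM (516 to 595). In enterocyte-like cells it was 232 CPM (217 to 247) and 259 CPM (247 to 272), higher in set 2 with intervals that just overlapped.

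Sorted by cell-cycle genes, crypt-like cells with high G2 and mitosis genes had 356 and 498 CPM of Anxa4, those with high S-phase genes 256 and 442, and those with neither 354 and 464. Anxa4 was lowest in the S-phase cells of both sets, but in set 2 its interval there (422 to 463) overlapped that of the cells with neither (437 to 492). Anxa2 had no such shared order, with 63.2 and 78.4, 102 and 69.7, and 91.8 and 95.8 CPM.

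Within crypt-like cells the summed levels of Anxa1 and Anxa3 also differed between the sets beyond their counting intervals, while those of Anxa10 overlapped. Anxa1 stood at 0.32 CPM (0.16 to 0.60, 10 UMIs) in set 1 and 2.73 CPM (2.09 to 3.50, 61 UMIs) in set 2, and Anxa3 at 0.87 CPM (0.58 to 1.27) and 2.95 CPM (2.28 to 3.75). Of the 61 Anxa1 UMIs of set 2, 37 lay in 4 cells with at least 5 each, and of the 66 Anxa3 UMIs of set 2, 41 lay in 4 such cells, while set 1 had 0 such cells for either gene. Without these cells, an alternative added after seeing the data, set 2 stood at 1.08 CPM of Anxa1 (0.70 to 1.61), still above set 1. Anxa3 stood at 1.13 CPM (0.73 to 1.67) without them, and its interval then overlapped that of set 1. Within revival-like cells, Anxa1 had a log2 ratio of 1.20 between the sets, Anxa5 of 1.30 and Anxa2 of 0.59, while the intervals of Anxa3 overlapped. These ratios are of summed counts, and 1 cell of set 2 holds 147 of its 352 Anxa1 UMIs. The median over revival-like cells ran the other way for Anxa1, at 209 CPM in set 1 and 150 CPM in set 2. For Anxa2 the medians were 853 and 873 CPM, and for Anxa5 79.3 and 246 CPM.

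Goblet- or Paneth-like cells, the mucus and antimicrobial secretory cells, were few. None of the 8 members was past 2-fold higher there, against 2.27% of all genes, and Anxa1 was the 1 past 2-fold lower, against 7.6%. That call rests on 0 and 1 UMIs, with intervals of 0 to 7.63 and 0.08 to 18.6 CPM that hold the level of the other cells in both sets, so a difference was not detectable at this depth. Anxa2 stood at 153 CPM (120 to 192) and 150.5 CPM (110 to 201), and Anxa4 at 478 CPM (418 to 544) and 351 CPM (287 to 425).

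Genes with a pattern like each annexin were ranked by the lower of the Pearson correlations in the sets, over log-scaled values of 7403 genes. For Anxa5 the first were Cpe (0.58 and 0.57), Pcsk1 (0.58 and 0.56), Fxyd3, Aplp1 and Pam; of these, Cpe is a gate marker. For Anxa2 they were Lgals3 (0.38 and 0.53), Gsta1, 2200002D01Rik, Gapdh and Prap1. The first genes of Anxa4, Anxa7 and Anxa11 reached 0.28, 0.16 and 0.17 in the weaker set, too weak in sparse counts to name.

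Anxa1, Anxa3 and Anxa10 were under the planned minimum of 500 UMIs in each set, and their rankings were added with a minimum of 200. S100a6 and Msln led for Anxa1 (0.53 and 0.63, 0.51 and 0.68). Msln led for Anxa3 (0.59 and 0.64) and for Anxa10 (0.59 and 0.71). S100a11, Gsn and S100a6 were among the first 5 of each of the 3. Msln and S100a6 belong to the revival gate. When detection replaced levels, 8 of these 15 genes and 1 of the 25 of the other members stayed listed.

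Of 11 partners of annexins, 8 had at least 10 UMIs. Between the sets, S100a11, the partner of Anxa1, was 61.8 and 147 CPM, and S100a6 75.7 and 171 CPM. These 2 of 8 were past 1.5-fold higher, against 2.46% of all genes, and 0 lower, against 1.4%. S100a6 is a marker of the revival gate, and outside the revival-like class it was 51.0 and 64.2 CPM. S100a11 was 52.4 and 104 CPM there. S100a10, the partner of Anxa2, was 299 and 319 CPM. The list's median log2 ratio was 0.02. The receptors Fpr1 and Fpr3 had 0 UMIs and Fpr2 had 1.

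S100a6 is a marker of the revival gate and is left out of the count in revival-like cells. Of the other 7 partners, 4 were past 2-fold higher there, against 5.27% of all genes, and 0 lower, against 8.61%. The 4 were S100a10, S100a11, Pdcd6, which binds Anxa7 and Anxa11, and S100a4, which rests there on 1 UMI in set 1 and 14 UMIs in set 2. S100a10 stood at 962 and 1577 CPM there, and S100a11 at 2188 and 3332. In enteroendocrine-like cells 3 of 8 partners were past 2-fold lower, against 7.93% of all genes, and 0 higher, against 21.4%. The 3 were S100a10, with log2 ratios of -2.61 and -3.32, S100a6, with -1.26 and -3.99, and Sri, with -1.40 and -1.59. For S100a6 the other cells include those of the revival gate, for which it is a marker. Its share of thinned cells was 4.94% and 1.99% in enteroendocrine-like cells. It was 1.70% and 3.12% in crypt-like cells, and 2.57% and 1.91% in enterocyte-like cells. Only in set 2, and only against crypt-like cells, was the enteroendocrine-like share the lower one. In enterocyte-like cells, where Anxa2 was past 2-fold higher, S100a10 was not, with log2 ratios of 0.53 and 0.32.

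Of 16 genes of membrane repair and calcium-dependent membrane binding, 13 had at least 10 UMIs. Ahnak, a large scaffold that binds the complex of Anxa2 and S100a10, was 9.61 and 18.7 CPM in the sets, the 1 of 13 past 1.5-fold higher, against 2.46% of all genes. In revival-like cells 4 of 13 were past 2-fold higher, against 5.27% of all genes, and 0 lower, against 8.61%, with Ahnak at 206 and 293 CPM, Myof at 11.1 (3 UMIs) and 33.9, Capn2 at 40.5 and 51.6 and Capns1 at 103 and 166. The median log2 ratio of the list there was 0.85 and 0.89. In enteroendocrine-like cells 2 of 13 were past 2-fold higher, against 21.4%, namely Capn2 with log2 ratios of 3.1 and 2.67 and Syt7 with 4.77 and 4.45. There 1 of 13 was lower, Ahnak, against 7.93%. In enterocyte-like cells Ahnak was the 1 of 13 past 2-fold higher, with log2 ratios of 2.16 and 1.51, against 5.04% of all genes. Syt7 was the 1 lower, on 2 and 1 UMIs, against 9.81%.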

How the data were processed

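Droplet single-cell 3′ libraries were deposited as counts of UMIs per gene and barcode, whole numbers with no normalization, per the file headers. The submitters' processing notes name Cell Ranger 3.1.0, STAR 2.7.3a and bcl2fastq 2.20.0; build and annotation are not given in the sources used here. Members were matched by symbol and Ensembl identifier, and 30934 of 31053 identifiers were found in a table of mouse gene names.

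Counts were summed in Python 3.11.15 (numpy 2.4.6, scipy 1.17.1, pandas 2.3.3, matplotlib 3.10.9) with the cell filters given above. The log2 ratios use a pseudocount of 1 CPM, and so understate the change of low genes. Genes with at least 10 UMIs formed the background; all 8 members passed. Folds of 1.5 between sets and 2 against other cells, in both sets, were used as calls. Thinned shares came from the hypergeometric distribution. No doublet caller was run; cells of several gates were left out. Reads of overlapping genes cannot be told apart here, and the antisense gene Anxa11os had 6 UMIs. Named genes were the members, other annexins, a partner list, a membrane repair list and the 5 most correlated genes of each member. The members and lists were chosen with earlier results of these data known, and gate thresholds after marker sums were seen. The set ratio was tried on simulated totals with Poisson counting error and no spread between cells. It therefore says nothing on ratios of members held by a few cells. Alternatives changed filters, scaling, pseudocount, gates and the cells included.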

Additional observations from a re-analysis of the deposited data

Results flagged for a closer look

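Barcodes that were not kept as cells also held annexin UMIs. These 17740 barcodes had 57.6% mitochondrial UMIs, against 9.75% in kept cells. Their level was 160 CPM for Anxa4 (kept cells 395), 48.6 for Anxa2 (125), 25.3 for Anxa7 (50.4) and 22.3 for Anxa11 (60.2). It was 4.05 CPM for Anxa5 (18.2), 3.79 for Anxa3 (11.1), 2.14 for Anxa10 (12.3) and 0.97 for Anxa1 (8.15). All 8 were above the limit that a count of 0 allows and below the kept cells. Scaled to non-mitochondrial UMIs, Anxa4 stood at 376 and 437 CPM in the barcodes not kept and the kept cells, Anxa7 at 59.7 and 55.9, and Anxa1 at 2.29 and 9.03. Anxa7 alone was higher in the barcodes not kept on that scale.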

How the results depend on the processing

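All 8 set ratios stayed above 0 in the 9 alternatives run. Of 8 members, 1 was past 1.5-fold with every cell weighted equally, 1 without the 5% of cells with most UMIs and 2 without revival-gate cells (added after seeing the data); among genes at 10 CPM or more, 2.73% were. In enterocyte-like cells, members past 2-fold higher numbered 0 at a gate threshold 2 times lower, 2 with cells weighted equally and 2 without the 5% of cells. Members lower there numbered 0 with a limit of 10% mitochondrial UMIs, 2 without each gene's 3 top cells and 0 without the 5 top Anxa1 cells (added). In goblet- or Paneth-like cells the 1 lower member became 0 at double the threshold, 0 with cells of several gates assigned, 3 without the 3 top cells, 0 without the 5% and 0 without the 5 top Anxa1 cells. In each set 5 members had a UMI in 10% of cells or more unthinned, against 3 thinned. Under detection 1 of 25 and 8 of 15 correlated genes stayed.

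Single ratios that reversed were Anxa3 in enterocyte-like cells of set 1 (-0.16) and Anxa10 in goblet- or Paneth-like cells of set 2 (2.33) at double the threshold; Anxa10 (3.11) and Anxa1 (0.34) in the latter with several gates assigned; Anxa10 in enterocyte-like cells of set 1 without its 3 top cells (-0.84); and Anxa1 there without the 5 top Anxa1 cells (0.13). The cause was not tested. No paired analysis was possible because no test was run on 1 matrix whose suffixes have no labelled group. Scaling without mitochondrial genes moved the median of all genes by 0.000765. The few revival-like and goblet- or Paneth-like cells, and UMIs of rare members in single cells, limit these values.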

Other observations

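Of the annexins outside the 9, Anxa8 was the most restricted. It had 32 UMIs in 7 cells of set 1 and 73 UMIs in 6 cells of set 2, and the revival-gate cells held 93.8% and 100% of them. Anxa6 showed an enteroendocrine pattern, with 76.9% and 82.0% of its UMIs in enteroendocrine-like cells, and Anxa9 was at 0.55 and 0.74 CPM.

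Squamous markers were uneven in the revival-like cells. The sum of 7 such genes was 3.68 CPM in set 1 and 563 CPM in set 2, of which Sprr1a made up 379 of 382 UMIs; Krt5, Krt14, Krt6a, Krt13 and Trp63 were at 0 in both sets. Ccl20, an epithelial chemokine, had 21 and 205 UMIs in the same cells.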
